A study of Mus musculus with 3 samples.

Results

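The genes described here are 9 genes of the exon junction complex and of nonsense-mediated mRNA decay (NMD): Magoh, Magohb, Rbm8a, Eif4a3, Casc3, Upf1, Upf2, Upf3b and Rnps1. They were found by symbol among the noncontrol probes of the arrays, where they had 10 probes of 39429, 2 of them for Rnps1. They were chosen by the very low RM1-MXRA7 over RM1-VE ratio of Magohb, which was known from these arrays, with the others as its partners, so all values of the 9 genes are a description. No p is given for them, and where calls of the fit across all genes are counted among them, nothing is read from the count. RM1 cells are a line of mouse prostate cancer. RM1-MXRA7 cells carry a transfected MXRA7 construct and RM1-VE cells the vehicle vector, and both lines were kept in DMEM with 10% serum and 400 μg/mL of the selection drug G418, and taken on day 2 in exponential growth. Total RNA was compared on 3 Agilent 2-colour arrays (replicates 1 to 3), each with RM1-MXRA7 in Cy3 and RM1-VE in Cy5. The dyes were not swapped, so that a bias of a probe towards 1 dye and a true difference cannot be told apart. Nothing in the labels tells if replicates came from different cultures, or if a line is 1 clone or a pool, and the spread between arrays may be technical.

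The exon junction complex is laid down on mRNA just upstream of each splice junction. Its core holds the helicase Eif4a3, which clamps the RNA, the heterodimer of Rbm8a (Y14) and a Mago protein, which locks the clamp, and Casc3 (MLN51, Barentsz). In mammals the Mago subunit is encoded by 2 genes, Magoh and Magohb, whose proteins are nearly identical. A complex left downstream of a stop codon recruits Upf3b, Upf2 and the helicase Upf1, and the mRNA is then degraded by NMD. In proliferating cells this surveillance acts on transcripts with premature stop codons and also tunes many normal mRNAs.

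The probes of the paralogs are shown because the contrast between Magohb and Magoh rests on 1 probe each. Both lie at matching places of the transcripts, and both cross a splice junction on the mm9 coordinates of the array files, with 914 genomic bases skipped by the Magohb probe and 2177 by the Magoh probe. The Magoh probe lies at chr4:107557574-107559810 on the plus strand and the Magohb probe at chr6:131234716-131235689 on the minus strand. Capitals mark the bases that differ between the probes when they are aligned.
Magoh: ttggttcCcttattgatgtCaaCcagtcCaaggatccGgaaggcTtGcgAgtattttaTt
Magohb: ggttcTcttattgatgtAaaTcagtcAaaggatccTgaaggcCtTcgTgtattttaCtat
Of 58 aligned bases 49 were identical (84.5%) and 9 differed, and the longest identical run was 11 bases. In the open reading frame shared by the probes, all 19 codons encode the same residue in both genes, and 8 of the 9 differences fell at the third codon position. Hybridization of one paralog's RNA to the other's probe was not measured here.

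Magohb, a Mago subunit of the core, was far lower in RM1-MXRA7. On arrays 1, 2 and 3 its log2 ratio of RM1-MXRA7 over RM1-VE was -4.73, -4.37 and -4.34, with a mean of -4.48 ± 0.22 (SD, n = 3), or 22.3-fold lower. All 3 arrays gave a ratio of the same sign and of similar size, and a mean ratio of at least 1 in size, with and without the array surface described below, was held by 0.927% of all genes tested. Its normalised log2 intensity was 7.06, 6.93 and 6.93 in RM1-MXRA7 and 11.79, 11.30 and 11.27 in RM1-VE. The values of the lines did not overlap, as was so for 38% of all genes tested. Those of RM1-MXRA7 had the smaller SD, 0.07 against 0.29 (n = 3 each), but lay close to the floor of the arrays, as described below. The SDs therefore do not compare the spread of expression in the lines.

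Magoh, the other Mago gene, lay near 0. Its log2 ratio was 0.10, 0.14 and 0.28 on the 3 arrays, with a mean of 0.17 ± 0.09 (SD, n = 3), or 1.13-fold. Its normalised log2 intensity was 14.57, 14.32 and 14.29 in RM1-MXRA7 and 14.47, 14.18 and 14.02 in RM1-VE. The ranges of the lines overlapped, though within each array, which pairs the lines, the value of RM1-MXRA7 was the higher. The difference between the log2 ratios of the paralogs, Magohb minus Magoh, was -4.83, -4.51 and -4.62 on the arrays, with a mean of -4.66 ± 0.16 (SD, n = 3). That difference is far larger than its SD between arrays, but it was the reason the pair was chosen and was not tested. Since intensities of different probes are on different scales, they do not say which paralog was the more abundant in RM1-VE cells.

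**Figure D1:**
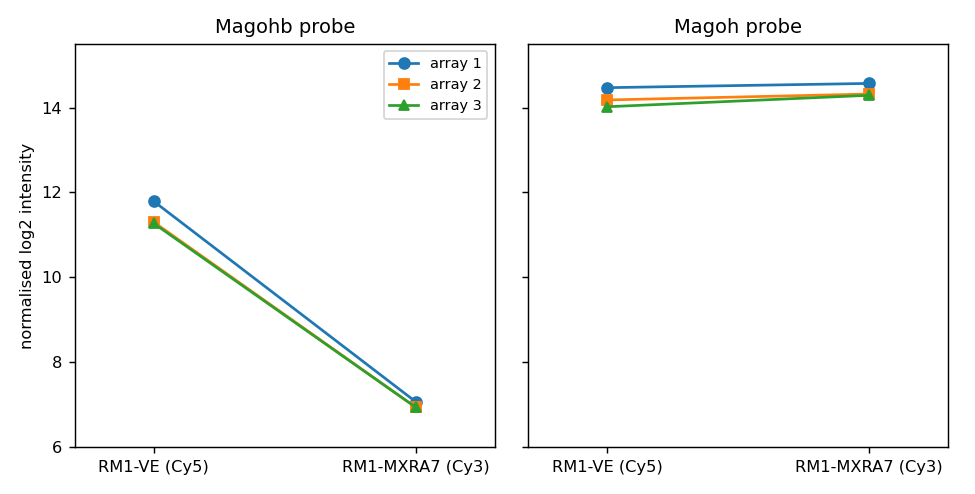
Normalised log2 intensity (y axis, after loess and Aquantile) of the Magohb probe (left) and the Magoh probe (right) in RM1-VE (Cy5) and RM1-MXRA7 (Cy3), with 1 line for each of the 3 arrays. Magohb went from between 11.27 and 11.79 in RM1-VE to between 6.93 and 7.06 in RM1-MXRA7, while Magoh stayed between 14.02 and 14.57; levels of the 2 probes are not comparable with each other.

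The Magohb signal in RM1-MXRA7 lay close to the floor of the arrays. The mean Cy3 signal of the spot was 114.7, 93.6 and 109.6 scanner units, and its Cy5 signal was 3925, 2995 and 3109. Of 153 negative control spots, whose median Cy3 signal was 66.0, 62.9 and 68.1, 1, 1 and 4 were brighter in Cy3 than the Magohb spot on arrays 1, 2 and 3, and 0 were brighter in Cy5. On each array the software marked the spot as well above background in Cy3 and in Cy5. The fold differed with the processing. It was 57.2-fold in Agilent's processed signals (log2 ratio -5.84 ± 0.22, SD, n = 3), where the Cy3 signal left was 25.0, 17.1 and 20.3. It was 16.0-fold with no background correction, where, as in the main fit, an offset of 50 was added to each channel. These settings differ in more than the background taken off, and what sets the fold was not tested.

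**Figure D2:**
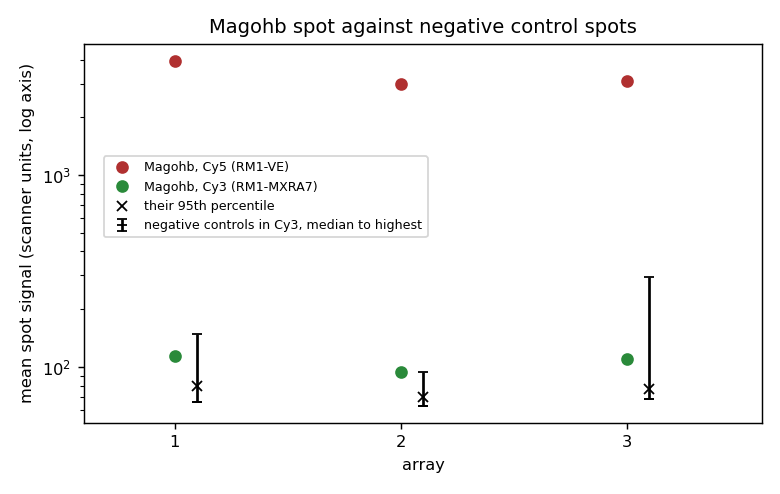
Mean spot signal (scanner units, log axis) of the Magohb probe in Cy5 (red) and Cy3 (green) on each array, with the median to the highest of 153 negative control spots in Cy3 (black bars) and their 95th percentile (crosses). The Cy3 signal lay above the 95th percentile of the negative controls and below the brightest control on each of the 3 arrays.

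The log ratios of these arrays were fitted with a surface over rows and columns, alone and times log2 intensity. Ratios are also given with this surface removed. On arrays 1, 2 and 3 this surface held 34.4%, 34.1% and 25.6% of the log ratios' variance. A gene counts below as called, and is said to have risen or fallen, only where limma gave an adjusted p under 0.05 in the same direction with the surface left in and with it removed. An adjusted p printed below is the larger of the 2 fits. All 9 genes were among the 16820 tested, each well above background in both channels of every array. Of the 9, 1 was called, Magohb, which is 11.1% against 20.2% of all genes tested. Over all genes 10.5% were called lower and 9.71% higher in RM1-MXRA7. With the surface left in 6 were called (47.3% of all genes) and with it removed 2, Magohb and Magoh (30.3% of all genes). These shares use the contrast by which Magohb was chosen and are given as description. With median centring in place of loess 6 of the 9 were called, all lower, against 8842 of 16820 genes, 8546 of them lower. That setting moved the median of all genes to -0.29. The 8 other genes had a median log2 ratio of 0.005 with the surface left in and 0 with it removed, against -0.015 and 0.008 over all genes tested.

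The partners of the Mago proteins in the core showed small ratios. Rbm8a, whose product binds Mago directly (chromosome 3, 96434833 to 96434892, plus strand), had log2 ratios of 0.46, 0.63 and 0.32, a mean of 0.47 ± 0.15 (SD, n = 3). With the surface removed it lay at 0.10 ± 0.08 and in Agilent's processed signals at 0.11 ± 0.07, values much smaller than the first. Eif4a3, the RNA clamp (chromosome 11, 119154913 to 119154972, minus strand), had -0.21, -0.21 and -0.36, a mean of -0.26 ± 0.09, and -0.008 ± 0.16 with the surface removed. Casc3, which stabilises the clamp (chromosome 11, 98695061 to 98695120, plus strand), had -0.27, -0.22 and -0.13, a mean of -0.21 ± 0.07. With the surface removed Casc3 lay at -0.16, -0.04 and -0.14, below 0 on 3 of 3 arrays, with a mean of -0.11 ± 0.06. A ratio of the same sign on all arrays, with the surface left in and removed, was seen in 39.6% of all genes tested. Magoh kept its value, at 0.18, 0.28 and 0.19 with the surface removed (mean 0.22 ± 0.06), and Magohb lay at -4.52, -4.26 and -4.10 (mean -4.29 ± 0.21, or 19.6-fold lower).

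The NMD factors among the 9 genes also showed small mean ratios, which were smaller with the surface removed. Upf1, the helicase on which NMD depends (chromosome 8, 72855632 to 72855691, minus strand), had log2 ratios of 0.59, 0.34 and 0.15, a mean of 0.36 ± 0.22 (SD, n = 3). Array 3 was the lowest for Upf1 in each of 3 versions of the data: there it lay at -0.01 with the surface removed, against 0.45 and 0.30 on the others, and at 0 in Agilent's processed signals, against 0.46 and 0.29. Upf2, the adaptor between Upf1 and Upf3b (chromosome 2, 5977222 to 5977281, plus strand), had -0.10, -0.22 and 0.03, and -0.004 ± 0.04 with the surface removed. Upf3b, the X-linked factor that contacts the exon junction complex (chromosome X, 34631829 to 34631888, minus strand), had -0.47, -0.21 and -0.37, a mean of -0.35 ± 0.13. With the surface removed it lay at -0.24, -0.09 and -0.05, a mean of -0.13 ± 0.10, so its value was below 0 on 3 of 3 arrays in both versions.

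Rnps1, a splicing regulator that joins the complex at its periphery, had 2 probes on chromosome 17. The brighter (24562234 to 24562293, plus strand) had log2 ratios of 0.20, 0.01 and 0.11, and the dimmer (24559126 to 24559185, plus strand) -0.05, -0.04 and -0.04. With the surface removed they lay at 0.004 ± 0.05 and 0.03 ± 0.09 (SD, n = 3). The probes differed in sign before the removal and by less than their SD after it.

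**Figure D3:**
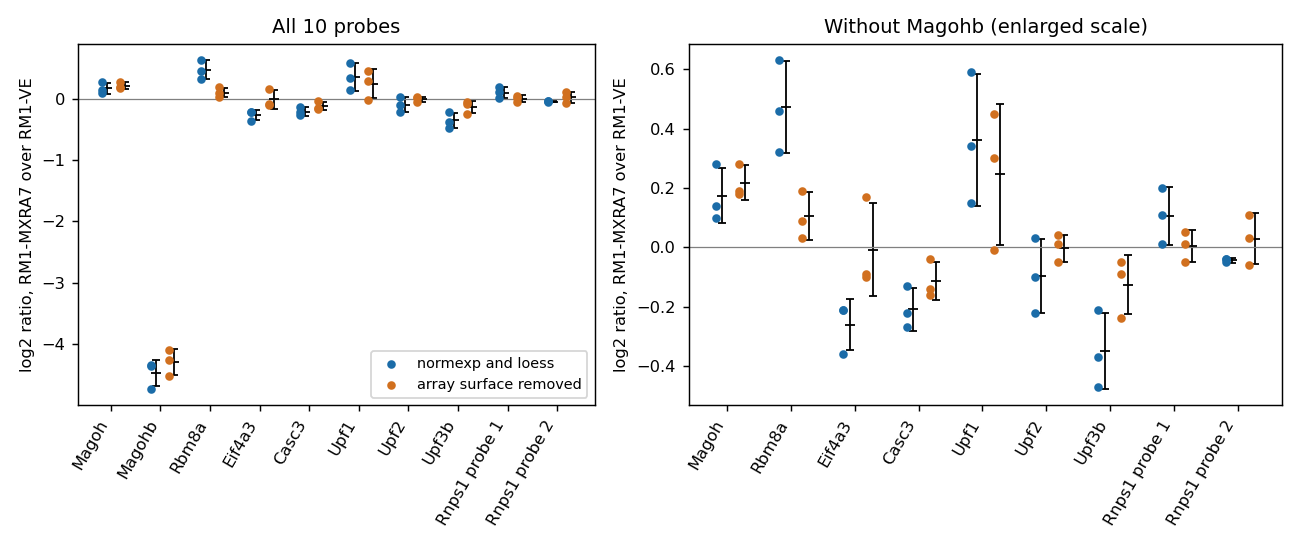
Log2 ratio of RM1-MXRA7 over RM1-VE (y axis) on each of 3 arrays (points) with mean and SD (black bars) for the 10 probes of the 9 genes, with the surface left in (blue) and removed (orange); the right panel leaves out Magohb and enlarges the scale. Magohb lay near -4 in both versions, and the means of the other genes lay between -0.35 and 0.47 and, with the surface removed, between -0.13 and 0.25.

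The kept probes near Magohb on chromosome 6 all had far smaller ratios. Within 1000 kb of its probe, by mm9 coordinates, lay 35 other probes, of which 11 were kept, 2 of them with a probe ID in place of a gene name. Their log2 ratios ran from -0.21 to 0.48 and, with the surface removed, from -0.07 to 0.43. The nearest kept probes, 15.4 kb and 65.4 kb away, belong to the receptor kinase gene Styk1 at -0.21 ± 0.07 (SD, n = 3) and to the natural killer cell lectin receptor gene Klra2 at -0.21 ± 0.20. With the surface removed they lay at -0.07 and -0.04, and neither was called. Ybx3, which encodes a cold-shock domain protein, lay 80.2 kb away at 0.48 ± 0.08 before and 0.14 ± 0.08 after removal and was not called. The lectin receptor gene Klra1 rose by 0.35 ± 0.20, and by 0.26 ± 0.20 with the surface removed (limma adjusted p = 0.0358). An unnamed probe, A_55_P2037643, rose by 0.26 ± 0.36 and 0.43 ± 0.36 (limma adjusted p = 0.0497). These probes lie at separations of 920.6 and 911.9 kb. Of the 10 genes with a kept probe here 2 were called, against 20.2% of all genes tested, and nothing is read from the count. The kept probe of Klra16, 920.5 kb away, lay at -0.14 and, with the surface removed, at 0.05. Those of Klra23 lay at 0.19 and 0.02 and, with the surface removed, at -0.02 and 0.17. Klra genes form a family of related sequences, so their signals may not be separate, which was not tested.

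**Figure D4:**
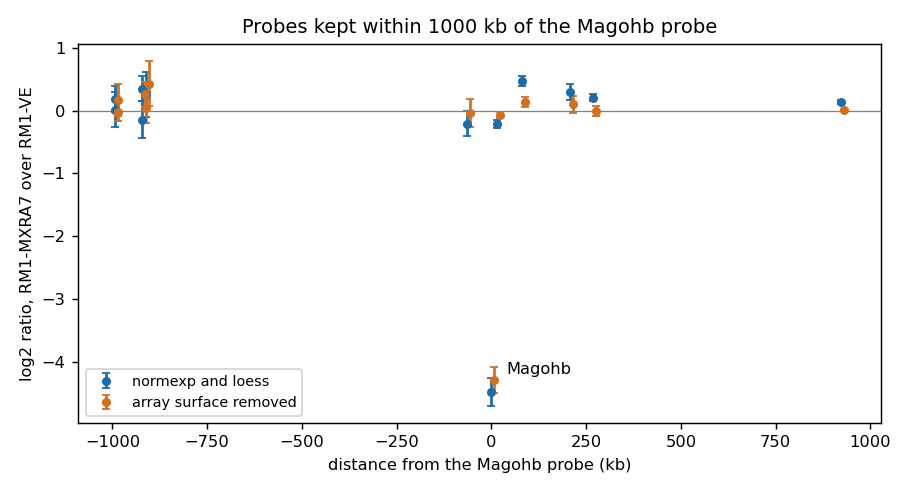
Log2 ratio of RM1-MXRA7 over RM1-VE (mean and SD of 3 arrays) against the distance in kb from the Magohb probe, for kept probes within 1000 kb, with the surface left in (blue) and removed (orange, drawn slightly to the right). Magohb lay below -4 and the other probes between -0.21 and 0.48.

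The genes whose 3 ratios lay nearest to those of Magohb were, by Euclidean distance over the 3 arrays among 16820 genes, Crip1 (0.72), Ggh (0.80), Rgl3 (1.41), Cth (2.31) and Pdlim4 (2.62). Of these Crip1, a gene for a LIM protein, lay at -4.35, -3.80 and -4.13, and Pdlim4, whose product has a PDZ and a LIM domain, at -2.95, -3.24 and -2.79. Ggh, Rgl3 and Cth were not well above background on every array in 1 of the channels. Magohb had the lowest mean log2 ratio of all genes tested, -4.48, so the genes nearest to it can only be others with very low ratios. None of the 5 is a gene of the exon junction complex or NMD. With the small ratios given above for such genes this could not be otherwise, and nothing is read from it.

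Outside the 9 genes, 1 gene that works with the complex in mRNA export and recycling rose and 1 fell. Of 16 listed, 15 were tested and Pym1, which recycles the complex from translated mRNA, was not well above background. Nxt1, the cofactor of the mRNA export receptor, rose by 0.30 ± 0.06 (SD, n = 3; limma adjusted p = 0.00715), with 0.27 ± 0.02 when the surface was removed, but lay at -0.27 with median centring. Pnn, the gene of the nuclear speckle protein pinin, had a log2 ratio of -0.39 ± 0.09 (limma adjusted p = 0.0248) and fell, with -0.24 ± 0.12 when the surface was removed. The other 13 did not pass, among them Alyref, the export adaptor, at 0.46 ± 0.12 before and 0.02 after removal. The 2 called are 13.3% of 15, against 20.2% of all genes, and the list median was 0.019 before and 0.049 after removal. With median centring 8 of the 15 were called, all lower, against 8842 of 16820 genes, 8546 of them lower. Without replicate 2 none of the 15 was called, against 1348 of 16820 genes, at adjusted p of 0.0956 for Pnn and 0.083 for Nxt1 in limma. Without replicate 3 only Nxt1 of the 15 was called, against 2938 of 16820 genes.

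Among 20 other NMD factors, all tested, 4 fell and 1 rose. Smg1, the kinase that phosphorylates Upf1, had log2 ratios of -0.53, -0.64 and -0.41, a mean of -0.53 ± 0.12 (SD, n = 3; limma adjusted p = 0.00467), and -0.34 ± 0.10 with the surface removed. Dcp2, the catalytic subunit of decapping, lay at -0.40 ± 0.08 and, with the surface removed, at -0.25 ± 0.07. Its cofactor gene Dcp1b lay at -0.50 ± 0.15 and -0.37 ± 0.17, but in RM1-MXRA7 it was well above background on 1 of 3 arrays, and it lay at -1.98 ± 0.80 in Agilent's processed signals, so its size is not settled. Stau2, a double-stranded RNA binding protein, lay at -0.47 ± 0.02 and, with the surface removed, at -0.34 ± 0.08, while its 2 other kept probes lay at -0.22 ± 0.15 and -0.01 ± 0.11 before the removal. Dhx34, a helicase that acts with Smg1 and Upf1, rose by 0.24 ± 0.05 (limma adjusted p = 0.0175), with 0.36 ± 0.07 when the surface was removed and -0.23 with median centring. Smg5 and Smg6, effectors that bind phosphorylated Upf1, lay at 0.13 and 0.21, and at 0.26 and 0.16 with the surface removed, and were not called.

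Upf3a, the paralog of Upf3b, was among those not called: it lay at 0.46 ± 0.07 with the surface left in and at 0.13 with it removed. The translation factors Eif4a1 and Eif4a2, paralogs of Eif4a3, went from -0.29 and 0.40 to -0.07 and 0.009, and a second kept probe of Eif4a2 from -0.23 ± 0.03 to -0.03. The 5 calls are 25.0% of the 20 factors, against 20.2% of all genes, and the list median was -0.068 before and -0.03 after removal. With median centring 10 of the 20 were called, all lower, against 8842 of 16820 genes, 8546 of them lower. Without replicate 2 only 2 of the 20, against 1348 of 16820 genes, were called, and Smg1, Dcp2 and Dhx34 were not among them. Without replicate 1 Dhx34 was not called either.

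Transcripts known from other work to be degraded by NMD were called in both directions. Of 19 listed and tested, 4 rose, 2 fell and 13 did not pass, so that 31.6% were called against 20.2% of all genes. With median centring 11 of the 19 were called, all lower, against 8842 of 16820 genes, 8546 of them lower. Ptbp2, a splicing regulator whose mRNA is held low by a skipped exon and NMD outside neurons, rose by 0.61 ± 0.11 (SD, n = 3; limma adjusted p = 0.00356), with 0.32 ± 0.02 when the surface was removed. The stress gene Ddit3 (CHOP) rose by 0.34 ± 0.12, and by 0.37 ± 0.11 with the surface removed. The glutathione-degrading enzyme gene Chac1 rose by 0.45 ± 0.06, and by 0.20 ± 0.08 with the surface removed (limma adjusted p = 0.0363). The splicing factor gene Srsf3 rose by 0.36 ± 0.11, and by 0.19 ± 0.07 with the surface removed (limma adjusted p = 0.0373). The 2 other kept probes of Srsf3 lay at -0.02 and 0.35, the mean of its kept probes was not called (0.23, limma adjusted p = 0.0928), and it lay at -0.16 with median centring.

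The 2 transcripts of that list that fell are also stress genes. Trib3, a pseudokinase gene, had log2 ratios of -0.39, -0.48 and -0.48, a mean of -0.45 ± 0.05 (SD, n = 3; limma adjusted p = 0.000742), and Gadd45b, a growth arrest gene, had -0.26, -0.66 and -0.24, a mean of -0.39 ± 0.24. With the surface removed both lay at -0.51. The noncoding Gas5, Snhg1, Snhg12 and Snhg15, hosts of small nucleolar RNAs, lay between -0.24 and 0.20 and were not called. The list median was 0.19 with the surface left in and 0.11 with it removed, against -0.015 and 0.008 over all genes. Without replicate 2, 2 of the 19 were called, against 1348 of 16820 genes, and Ptbp2, Chac1, Srsf3 and Gadd45b were not among the 2. Without replicate 1, Chac1 and Srsf3 were not called, nor were they in Agilent's processed signals, at 0.17 and 0.16. Probes for SR protein genes do not separate the isoforms that NMD degrades from the others.

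**Figure D5:**
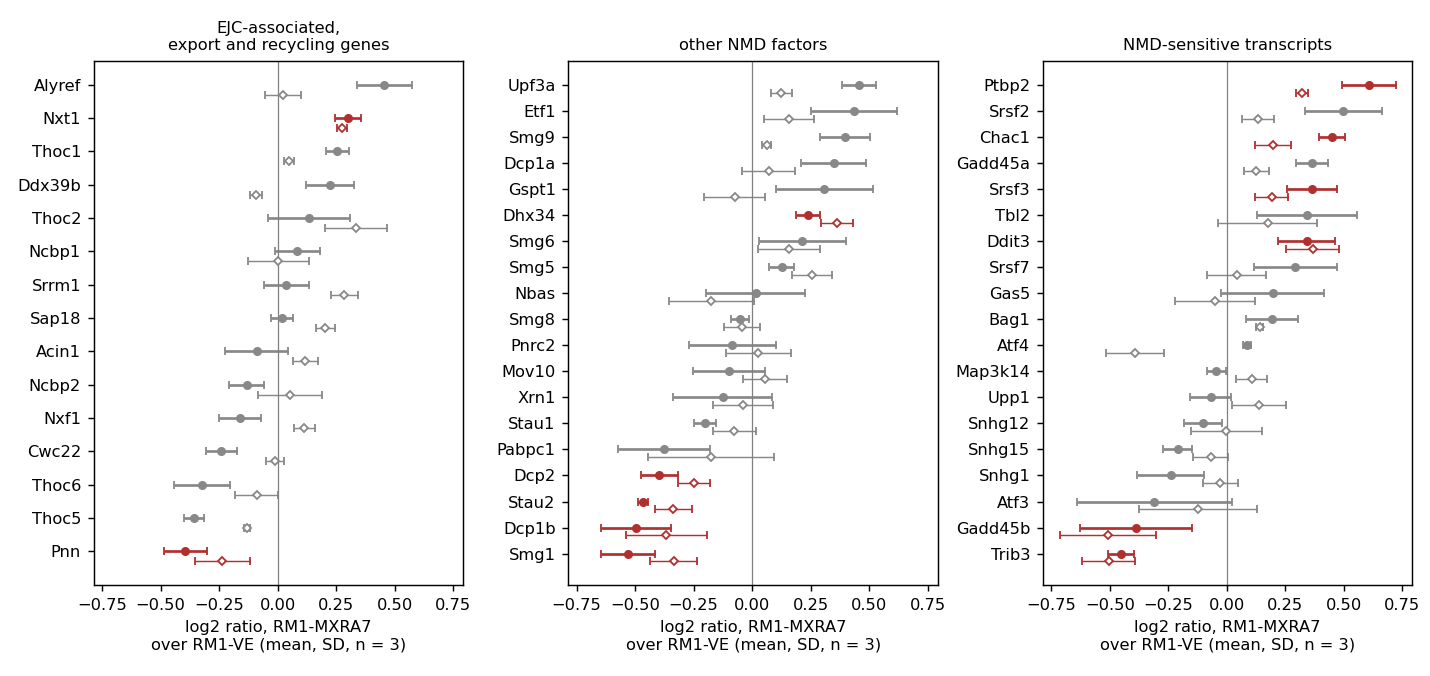
Log2 ratio of RM1-MXRA7 over RM1-VE (x axis, mean and SD of 3 arrays) for genes tested in 3 lists (1 uncalled NMD factor is not drawn), with the surface left in (filled circles) and removed (open diamonds); genes called in both are red. All means lie between -0.53 and 0.61, and the called genes are 2 of 15, 5 of 20 and 6 of 19.

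Further facts of the arrays bear on the values above. The ratios of the array pairs correlated across genes with Pearson's r between 0.785 and 0.851 (genes are not independent replicates), and per array 21787 to 24185 probes were well above background in a channel. The transfected gene Mxra7 lay at 0.31 ± 0.14 (SD, n = 3) on its brighter probe and at -0.016 ± 0.05 with the surface removed, and on its dimmer probe at 0.10 ± 0.04 and 0.086 ± 0.06, so the direction of every ratio depends on the dye labels. Of the markers fixed for the cell type, Krt8, Krt18, Vim, Cdh2, Fn1, Hras and Myc were well above background in both lines on all arrays, whereas the epithelial genes Epcam and Cdh1 and the prostate gene Pbsn were not. Of markers of other cell types, the endothelial Pecam1 and Cdh5 and the macrophage gene Cd68 were also above background in both lines, and the leukocyte gene Ptprc was not; their part in the results was not tested. In bulk RNA, fewer cells with a transcript and less of it per cell cannot be told apart.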

How the data were processed

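The authors deposited scanner output of Agilent Feature Extraction (version 10.7.1.1, per the submitters' processing notes), with spot and background intensity per channel and a processed intensity. The series matrix deposited by the authors gives a linear ratio, which equalled Cy3 over Cy5 processed signal within 1% for 100% of the values, with column medians of 1.02, 1.03 and 0.972.

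In limma 3.58.1 (R 4.3.3), intensities were corrected with normexp (offset 50) and loess-normalized within arrays, control spots at weight 0. Outlier spots were dropped and spots of a probe averaged. The alternative surface is a polynomial of degree 4 in row and column, alone and times log2 intensity, fitted to spots well above background. Probes well above background on all 3 arrays in a channel were kept (21805), named by RefSeq accession (27508 of 39429 probes) or by the file, and the brightest stood for a gene (16820 genes). The test of each log2 ratio against 0 used lmFit, eBayes and Benjamini-Hochberg adjustment. Single-channel levels used Aquantile. Each array pairs the lines, and its ratio keeps that pairing. Only the surface removal and the limma test were tried on simulated data. The simulated surface had a form that the polynomial can fit, so that trial says nothing of other surfaces or of the normexp and loess steps.

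Named genes are the 9 genes, every called gene of the other lists, kept probes within 1000 kb of Magohb, and the 5 genes nearest to it; others in the text were chosen after their values were seen. The 9 genes and the lists were chosen with earlier results of these data known. Exon annotation was not used here, and some listed genes are not reported here.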

Additional observations from a re-analysis of the deposited data

How the results depend on the processing

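The size of the Magohb ratio, a description of the arrays it was chosen on, ran from 16.0-fold lower without background correction to 57.2-fold lower in Agilent's processed signals and the series matrix. Of the 9 genes, 1 was called, against 6 with median centring (all lower) or in the loess fit alone, and 2 with no background correction, with the surface removed, with no filter or without replicate 3. Magohb minus Magoh was -4.19 without background correction, -4.36 with median centring and -5.99 in both Agilent's processed signals and the series matrix, and between -4.73 and -4.57 with a replicate left out. Median centring moved the median of all genes to -0.29 and that of the 9 genes from -0.09 to -0.43. It turned the sign of Magoh, Rnps1 and Rbm8a, to -0.38, -0.30 and -0.02. The called Nxt1, Dhx34 and Srsf3 also turned, to -0.27, -0.23 and -0.16. Relative to all genes, Magohb then lay at -4.45 and the median of the 8 others at -0.11.

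The small calls depend on the processing. The genes called, 3405, became 8842 (296 higher, 8546 lower) with median centring, 5352 with no filter, 7964 in the loess fit alone (chosen after seeing the data), 637 in single channels with no replicate block, and between 1348 and 3289 with a replicate left out. The 2 called genes that work with the complex became 4 in Agilent's processed signals and the series matrix, 5 with the surface removed, 8 with median centring (0 higher) or in the loess fit alone, 0 with no replicate block, and 0 to 2 with a replicate left out. The 5 called NMD factors became 10 with median centring (0 higher), 13 in the loess fit alone, 0 with no replicate block, and 2 to 6 with a replicate left out. The 6 called NMD-sensitive transcripts became 11 with median centring (0 higher), 13 in the loess fit alone, 0 with no replicate block, and 2 to 7 with a replicate left out. The fit with no replicate block ignores that each array pairs the lines. The causes of the other shifts were not tested. Leaving out a replicate leaves 2 arrays for the fit.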
